A study of Homo sapiens with 3 samples.

Results

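The clustered protocadherins are cell-surface adhesion proteins of the cadherin superfamily, encoded in 3 neighbouring gene clusters on chromosome 5. Their promoters were examined in the established cell line H2087, which is derived from a human lung adenocarcinoma. Members were taken by symbol alone, as the protein-coding genes of chromosome 5 that are named PCDHA, PCDHB or PCDHG with their number or C-type name. This gave 53 of 20163 protein-coding genes, with 15 in the alpha cluster (PCDHA), 16 in the beta cluster (PCDHB) and 22 in the gamma cluster (PCDHG). The clusters span 726.8 kb at chr5:140165721-140892544 on hg19. Chromatin immunoprecipitation followed by sequencing was performed by the study on untreated cells with an antibody against histone H3 trimethylated at lysine 4 (H3K4me3) or acetylated at lysine 27 (H3K27ac). The labels list 3 samples, namely 1 library per mark and 1 input library that was not analysed here. Both marks thus come from 1 line without a treated or control group, and no value has a replicate (n = 1 library per mark), so no test between groups was possible.

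Each clustered protocadherin promoter sits directly in front of its own large first exon, which encodes the whole extracellular part of the protein. In the alpha and gamma clusters that exon is spliced to constant exons shared by the cluster, whereas the beta genes are encoded by their variable exon alone. In neurons a cell uses only a small and varying set of these promoters, which gives it a surface identity. The C-type members are PCDHAC1, PCDHAC2, PCDHGC3, PCDHGC4 and PCDHGC5. They are expressed more uniformly than the others, and some of them differ in promoter sequence. H3K4me3 is typical of active or poised promoters, and H3K27ac of active promoters and enhancers.

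Marker genes were compared with the label of the line. A gene start was called marked when the edge of a peak lay within 1 kb of it. Of 11 markers of lung epithelium, 7 had H3K4me3 and 7 had H3K27ac, and NKX2-1, the lineage transcription factor of lung epithelium, had both. The surfactant genes SFTPB and SFTPC and the protease gene NAPSA had neither mark. Of 5 neuron markers, SYT1 had H3K4me3 and none had H3K27ac. None of 4 fibroblast markers, 4 blood markers and the 1 endothelial marker found under its symbol had a peak of either mark. The fibroblast, blood and endothelial lists are too short to be told from all starts, since the interval for 0 of 4 genes is 0 to 60.2%. The intervals of the 5 neuron markers also contained the shares of all starts.

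The promoters of the clusters carry short shared sequences, which are shown because they distinguish the alpha, beta and gamma promoters that the marks are compared across. In the 300 bases before the start of the annotated transcript, the 9-letter word held by most members of each group was determined on the coding strand, separately for each cluster and without the C-type members. The following stretches of GRCh37, the same build as hg19, are all on the plus strand, and the shared word is in capitals. For the alpha cluster, PCDHA7 (chr5:140213740-140213799) and PCDHA12 (chr5:140254812-140254871) had H3K4me3 at their start, and PCDHA8 (chr5:140220698-140220757) had no mark.
PCDHA7: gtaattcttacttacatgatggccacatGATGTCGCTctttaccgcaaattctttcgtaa
PCDHA12: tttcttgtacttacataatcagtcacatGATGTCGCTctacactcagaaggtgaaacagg
PCDHA8: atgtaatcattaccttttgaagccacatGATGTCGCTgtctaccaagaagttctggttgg
For the beta cluster, neither PCDHB10 (chr5:140571855-140571914) nor PCDHB15 (chr5:140624865-140624924) had a mark at its start.
PCDHB10: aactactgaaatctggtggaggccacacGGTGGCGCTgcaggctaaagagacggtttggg
PCDHB15: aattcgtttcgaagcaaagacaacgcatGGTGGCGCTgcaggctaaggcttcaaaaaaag
For the gamma cluster, PCDHGA1 (chr5:140709954-140710013) had H3K4me3 and PCDHGB1 (chr5:140729576-140729635) had no mark.
PCDHGA1: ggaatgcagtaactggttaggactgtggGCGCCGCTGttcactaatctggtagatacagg
PCDHGB1: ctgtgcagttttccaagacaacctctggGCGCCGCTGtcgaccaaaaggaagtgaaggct

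The word GATGTCGCT was held by 10 of 13 alpha promoters, against 0.119% of the same windows of all protein-coding genes. GGTGGCGCT was held by 13 of 16 beta promoters, against 0.675% of all. GCGCCGCTG was held by 10 of 19 gamma promoters, against 1.51% of all. None of these words occurred in another group or in any of the 5 C-type members. Since the words were picked as the most shared ones of these promoters, their frequency in the members is a description. They lay at a median of 48.5 bp before the start in the alpha cluster, 59 bp in the beta cluster and 60 bp in the gamma cluster. All 3 words contain the letters CGCT, which are the core of the conserved sequence element known from these promoters. In the window from 250 bases before to 50 bases after the start, CGCT on either strand was found in 51 of 53 members and in 82.0% of all protein-coding genes. A 9-letter pattern of the insulator protein CTCF, CCANNAGNG, was found there on either strand in 7 of 53 members (13.2%) and in 17.4% of all genes. These are matches of letters and not measured binding sites.

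The promoters of 4 of the 5 C-type members are shown separately, with each CpG in capitals. The C-type members lacked exact copies of the shared words, and 1 of them, PCDHAC2, held the highest H3K4me3 value of the clusters. Near matches were not searched for, and PCDHGC3 holds GTGCCGCTG, which differs from the gamma word in a single letter. The core CGCT was found around the start of each C-type member except PCDHGC5. The stretches are the 120 bases before the transcript start on the plus strand of PCDHAC1 (chr5:140305764-140305883), PCDHAC2 (chr5:140345941-140346060), PCDHGC3 (chr5:140855413-140855532) and PCDHGC5 (chr5:140868528-140868647).
PCDHAC1: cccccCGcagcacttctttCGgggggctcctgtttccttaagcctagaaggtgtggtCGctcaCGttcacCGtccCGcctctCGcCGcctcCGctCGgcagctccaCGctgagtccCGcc
PCDHAC2: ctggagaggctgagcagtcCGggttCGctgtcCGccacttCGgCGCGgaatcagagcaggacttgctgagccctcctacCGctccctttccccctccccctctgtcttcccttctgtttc
PCDHGC3: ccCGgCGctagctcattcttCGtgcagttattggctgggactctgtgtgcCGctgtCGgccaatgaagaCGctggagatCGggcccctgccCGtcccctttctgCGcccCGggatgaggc
PCDHGC5: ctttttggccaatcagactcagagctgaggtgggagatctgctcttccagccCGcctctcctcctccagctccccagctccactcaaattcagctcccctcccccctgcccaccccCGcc
All 120 bases were under an H3K4me3 peak in PCDHAC2 and 50 in PCDHAC1, with 7 and 12 CpG, respectively. No base was under a peak in PCDHGC3, with 10 CpG, or in PCDHGC5, with 2. The same held for PCDHGC4, whose stretch, with 6 CpG, is not printed.

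Few members were marked, and none carried H3K27ac. H3K4me3 was found within 1 kb of 6 of 53 starts (11.3%, 95% interval 4.27 to 23.0), against a background of 38.2% of all 20163 protein-coding starts. H3K27ac was found at 0 of 53 starts (0%, 0 to 6.72), against 23.6% of all starts. Consequently 0 members had both marks, against 18.6% of all starts, and 47 members (88.7%, 77.0 to 95.7) had neither, against 56.8% of all starts. For both marks the background lay above the upper bound of the members' interval. The intervals are exact (Clopper-Pearson), cover counting error only and treat neighbouring genes as independent. Sequencing depth is not known for either library, so a start without a peak cannot be told from one with too few reads.

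The 6 marked members were PCDHA7, PCDHA12, PCDHAC1, PCDHAC2, PCDHGA1 and PCDHGB3. The alpha cluster held 4 of them among 15 genes (26.7%, 7.79 to 55.1) and the gamma cluster 2 among 22 (9.09%, 1.12 to 29.2). The beta cluster held 0 among 16 (0%, 0 to 20.6). These intervals overlapped, and the clusters were not tested against each other. Of the 5 C-type members, PCDHAC1 and PCDHAC2 were marked, whereas PCDHGC3, PCDHGC4 and PCDHGC5 were not.

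**Figure D1:**
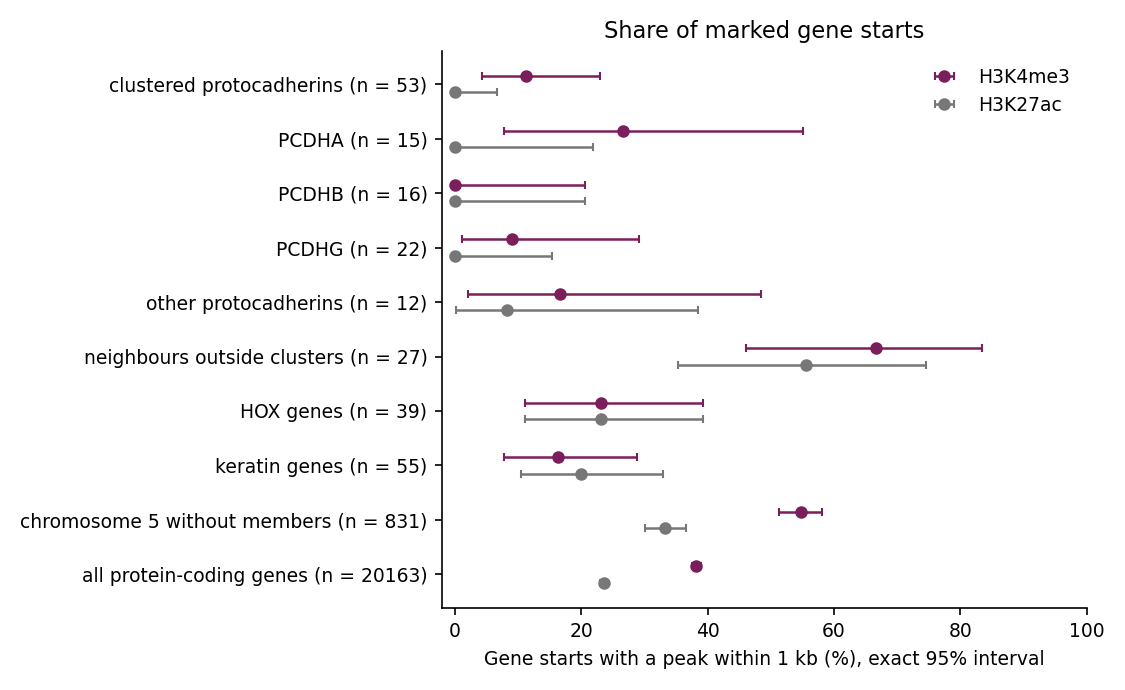
Share of gene starts with a peak within 1 kb (x axis, percent) for H3K4me3 (purple) and H3K27ac (grey) in the gene lists on the y axis, where n is the number of genes and the bars are exact 95% intervals. The 53 clustered protocadherins lie at 11.3% and 0%, to the left of the 27 neighbouring genes at 66.7% and 55.6%.

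The peaks of the marked members were described by their −log10 q in the deposited list, where a higher value stands for a smaller false discovery rate. PCDHAC2 had the highest value of the clusters, 5.42, and 86.2% of all H3K4me3 peaks were lower. Its peak (chr5:140345751-140346587) was also the widest H3K4me3 peak of the clusters, at 837 bp, and 95.3% of the list was narrower. It began 304 bp before the start of PCDHAC2 and ended 532 bp after it, so that it spanned the promoter and the first 236 coding bases. It also overlapped the antisense lncRNA ENSG00000279028. PCDHAC1 was the only member with several peaks. They had values of 1.88 at the start, 3.89 in a 670-bp peak beginning 830 bp downstream, and 2.46 in a peak beginning 2322 bp downstream.

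PCDHA7 had a value of 2.92 (chr5:140214039-140214300), which was higher than 43.6% of the list. PCDHA12 had a value of 1.88 (chr5:140255068-140255415) in a peak that also overlapped an antisense lncRNA, ENSG00000278915. In the gamma cluster, PCDHGA1 had a value of 1.58 (chr5:140710112-140710469) and PCDHGB3 a value of 1.61 (chr5:140749984-140750207). Only 18.0% of the list was lower than PCDHA12, 12.4% lower than PCDHGA1 and 12.9% lower than PCDHGB3. The members differed in position as well as in value. The peaks at PCDHA7, PCDHA12 and PCDHGB3 began 70, 181 and 175 bp downstream of the start and lay wholly within the coding sequence. For PCDHA7 the annotated start is its start codon, and the shared word lay 193 bp before it, so its distances are not from a transcript start.

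Of the marked members, 4 had H3K4me3 values below the median of all marked starts, and PCDHAC1 and PCDHAC2 had values above it. Taking the strongest peak within 1 kb, the median was 2.40 (1.58 to 5.42) over the 6 members, against 3.76 over the 7705 marked starts of all genes. Of those 7705 starts, 48.6% had H3K27ac too, against 0 of the 6 members (0%, 0 to 45.9). When the comparison was restricted to starts with H3K4me3 values in the range of the members, 2455 of 5433 (45.2%) had H3K27ac. The 45.2% lay within the interval of the 6 members.

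Counted over the first exon in place of the start, 9 members were marked, since PCDHB6, PCDHB10 and PCDHGA5 carried a peak further downstream. First exons had a median length of 2599 bp in the members. The background was 20.7% of all first exons for H3K4me3, against 9 of 53 members, and 10.1% for H3K27ac, which overlapped 0 of 53 members. For H3K4me3 the members thus lay closer to the background than when counted at the start. A longer exon has more room for a peak. The lengths of all first exons were not determined, so this background is not matched for length. The peak of PCDHB6 (2.03) began 1474 bp after the start and that of PCDHB10 (1.52, the lowest value in the clusters) 2255 bp after it. Both peaks also overlapped antisense lncRNAs. The peak of PCDHGA5 (2.45) measured 591 bp and began 1918 bp after the start. These 9 members carried 11 first-exon peaks, of which 8 lay wholly within coding sequence.

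**Figure D2:**
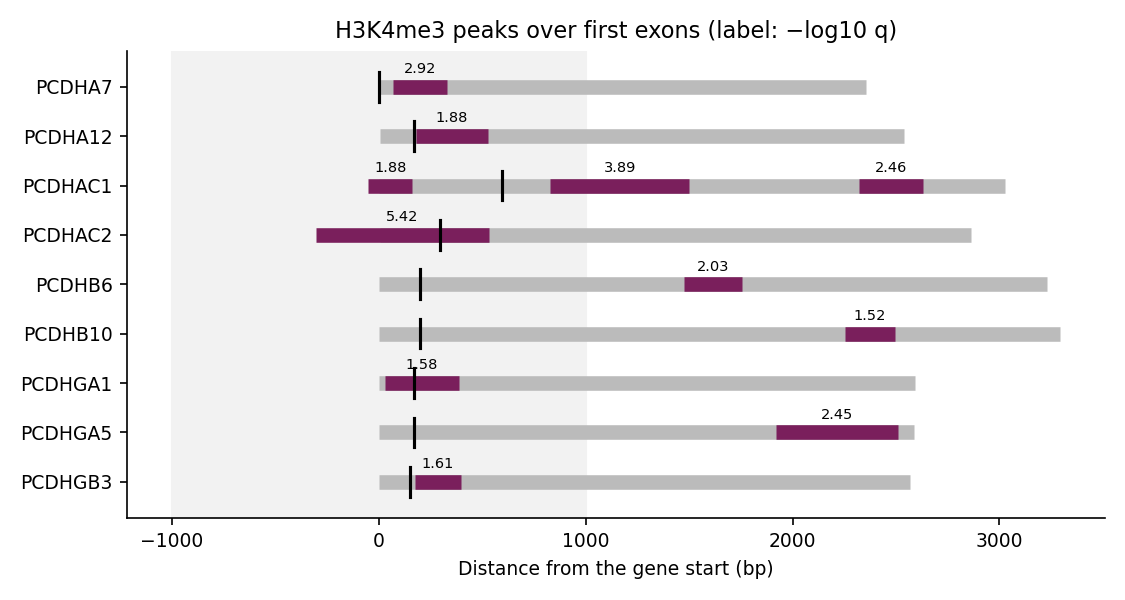
H3K4me3 peaks (purple, labelled with −log10 q) over the first exons (grey bars) of the 9 members with one, by distance from the gene start in bp, where the black tick is the start codon and the shading marks the 1-kb window. The peaks of PCDHAC2 and PCDHAC1 reached upstream of the start, and those of PCDHB6, PCDHB10 and PCDHGA5 lay outside the window.

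Repeated sequence differed between these peaks, which bears on them because first exons of the clusters resemble each other. As a measure, the percentage of 32-base words that occur more than once in the assembly on either strand was determined. It was 51.5% under the peak of PCDHA7, 53.3% for PCDHA12, 62.2% for PCDHB6 and 66.8% for PCDHB10. It was 16.4% for PCDHGA5, 0.306% for PCDHGA1 and 0% for PCDHAC1, PCDHAC2 and PCDHGB3. In all, 5 of the 18 H3K4me3 peaks in the clusters had over 50% of such words, against 10.1% of the 18585 peaks in the list. The H3K27ac peak of the clusters had none, and 13.4% of the H3K27ac list exceeded 50%. PCDHA7 and PCDHA12 lay just above that limit. Without the peaks above it, PCDHAC1, PCDHAC2, PCDHGA1 and PCDHGB3 remained marked, 4 of 53 members against 37.5% of all starts.

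How reads with several placements were treated is not given in the sources used here. Within 1 kb of the start, the median percentage of repeated words was 2.69 (0 to 43.6) over all members, 3.32 over the marked and 2.69 over the unmarked ones. It was 8.68 in the alpha, 0.711 in the beta and 2.16 in the gamma cluster, and 0.863 (0 to 23.1) at the neighbouring genes. The part of repeated sequence in the absence of peaks was not tested.

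**Figure D3:**
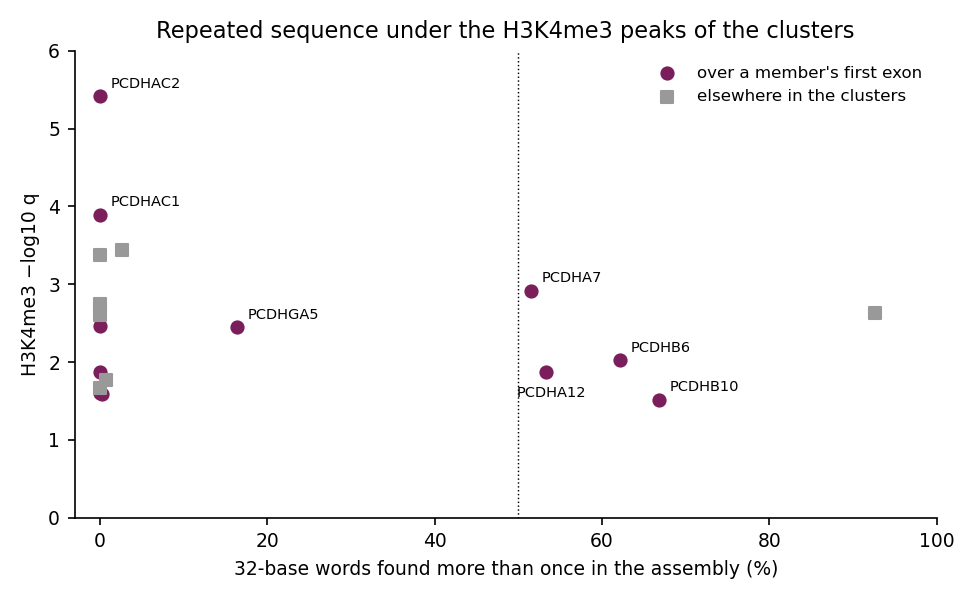
The −log10 q (y axis) of the 18 H3K4me3 peaks in the clusters by the percentage of their 32-base words that occur more than once in the assembly (x axis), for peaks over a first exon of a member (circles) and elsewhere (squares), with a dotted line at 50%. The peaks of PCDHAC2 and PCDHAC1 with values of 5.42 and 3.89 lie at 0%, and those of PCDHA7, PCDHA12, PCDHB6 and PCDHB10 to the right of the line.

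The span of the clusters contained 18 H3K4me3 peaks and 1 H3K27ac peak. H3K4me3 peaks were about as frequent there as nearby, with 2.48 per 100 kb in the clusters, 2.8 in the 500 kb on the left, 3.0 in the 500 kb on the right and 0.732 over chromosome 5. H3K27ac peaks numbered 0.138 per 100 kb in the clusters, 2.6 on the left, 4.8 on the right and 0.885 over chromosome 5. The length covered by H3K4me3 peaks was 0.835% of the clusters, against 1.43% and 1.48% of the flanks and 0.292% of the chromosome. For H3K27ac it was 0.0303%, against 0.857%, 1.59% and 0.304%. By cluster, H3K4me3 peaks covered 1.33% of the alpha, 0.265% of the beta and 0.643% of the gamma genes' span.

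The 18 H3K4me3 peaks were 183 to 837 bp wide, with a median of 286 bp, against 305 bp in the whole list. Their values ranged from 1.52 to 5.42 with a median of 2.45, against 2.97 in the list. Of the 7 peaks outside first exons of members, 1 lay between the alpha and beta clusters and overlapped the lncRNA ENSG00000288892 (chr5:140419417-140419742, 2.61). A further peak (3.37) overlapped the lncRNA ENSG00000272070 and lay 3881 bp before the start of PCDHGA1. The only H3K27ac peak (chr5:140700043-140700262, 3.32) was 220 bp wide. It lay 89 bp from the start of TAF7, a gene between the beta and gamma clusters that encodes a subunit of the general transcription factor TFIID, and 9819 bp before PCDHGA1, the nearest member.

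**Figure D4:**
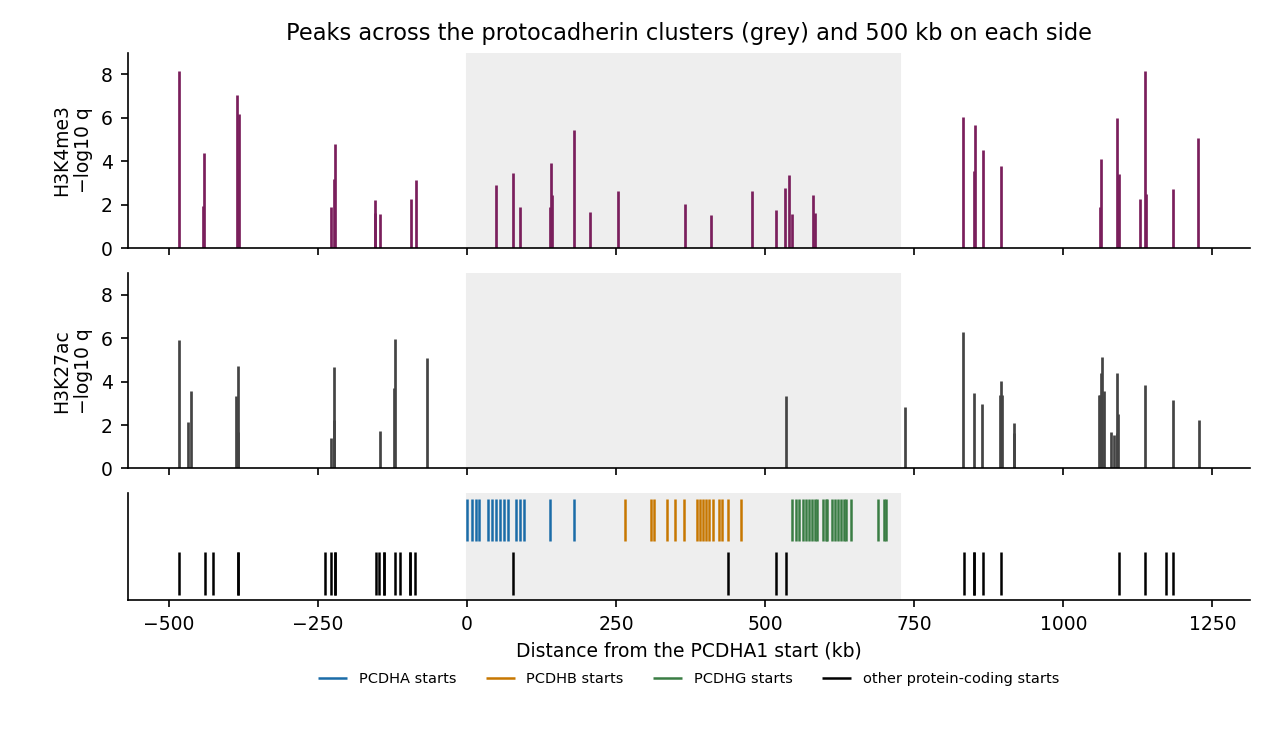
H3K4me3 peaks (top) and H3K27ac peaks (middle) by their −log10 q, and gene starts (bottom), along the distance from the PCDHA1 start in kb, with the clusters shaded. The shaded span holds 18 H3K4me3 peaks and 1 H3K27ac peak, and peaks of both marks stand on either side.

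All 31 alpha and beta starts lay in 1 stretch of 600.4 kb without H3K27ac (chr5:140099682-140700042). It was the 56th longest of 1600 such gaps on chromosome 5, whose median was 11.7 kb. All 22 gamma starts lay in the adjoining gap of 199.6 kb (chr5:140700263-140899817). The longest stretch without H3K4me3, 247.9 kb (chr5:140750208-140998102), held 14 gamma starts from PCDHGA6 to PCDHGC5. It ranked 211 of 1324 on the chromosome, where the median was 31.1 kb. Gaps of 133.3 kb and 111.4 kb held 7 alpha starts from PCDHA1 to PCDHA7 and 6 beta starts from PCDHB1 to PCDHB6, respectively, with the peaks of PCDHA7 and PCDHB6 bounding them. The annotated start of PCDHA7 lay in the gap, 70 bp before its own peak.

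The distance from a member to the nearest H3K4me3 peak had a median of 13.9 kb (0 to 118), against 12.1 kb over all protein-coding genes. By cluster the median was 6.48 kb in alpha, 16.6 kb in beta and 18.3 kb in gamma. To the nearest H3K27ac peak it was 97.1 kb (9.82 to 269) over the members, against 30.1 kb over all genes. Starts of neighbouring members were a median of 6.69 kb apart, so adjacent members share these distances and are not independent.

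Genes next to the clusters were often marked. Of 31 other protein-coding genes within the clusters or 500 kb of them, 20 (64.5%, 45.4 to 80.8) had H3K4me3 and 16 (51.6%, 33.1 to 69.8) had H3K27ac. Some of these genes shared a peak and were counted separately. For both marks these were ANKHD1 with ANKHD1-EIF4EBP3, SLC35A4 with APBB3, and HDAC3 with RELL2. For H3K4me3 they also included HARS2 with HARS1. The genes are thus not independent, and the intervals do not allow for this. The 27 that lay outside the clusters included DIAPH1, a formin gene (6.03 for H3K4me3 and 6.29 for H3K27ac), and HDAC3, a histone deacetylase gene (5.66 and 3.46). Inside the clusters, AC005609.1 had an H3K4me3 peak of 3.44, SLC25A2, a mitochondrial carrier gene, one of 1.76, and TAF7 had H3K27ac only. The nearest H3K4me3 peak to TAF7 was 1482 bp from its start, beyond the window. The starts of the 6 protocadherin pseudogenes of the clusters had no peak of either mark within 1 kb. The same H3K4me3 peak of 3.44 lay inside 1 of them, PCDHA14, at 1833 bp from its start. On chromosome 5 without the members, H3K4me3 was found at 455 of 831 starts (54.8%, 51.3 to 58.2) and H3K27ac at 33.3%. Both chromosome shares lay within the intervals of the 31 genes.

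Protocadherins outside the clusters were examined in the same way. Of 12 genes, PCDH1 had H3K4me3 (3.41), PCDH12 had both marks (2.73 and 3.17), and the other 10 had neither. At PCDH1 the nearest H3K27ac peak was 1204 bp from the start, beyond the window. The shares were 16.7% (2.09 to 48.4) for H3K4me3 and 8.33% (0.211 to 38.5) for H3K27ac, and both intervals contained the background. Both marked genes lie within 500 kb of the gamma cluster. For comparison with other gene clusters, 9 of 39 HOX genes and 9 of 55 keratin genes had H3K4me3. H3K27ac was present at 9 HOX and 11 keratin genes, and it accompanied H3K4me3 at 3 HOX genes and at all 9 keratin genes. The interval of the clustered protocadherins for H3K4me3 overlapped those of both families, whereas for H3K27ac its upper bound of 6.72% was below the lower bounds of 11.1% and 10.4%.

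Genes known to act on the clusters were examined with them. Of 16 genes for CTCF, cohesin and its loaders, and chromatin silencing, 11 had H3K4me3, 5 had H3K27ac and 4 had both. For H3K27ac and for both marks together, the intervals of the 16 genes contained the shares of all starts, 23.6% and 18.6%. For H3K4me3 the 38.2% of all starts lay below the lower bound of 41.3%. H3K27ac was present at PDS5A, NIPBL, WAPL, CTCF and MAU2, which encode cohesin regulators apart from CTCF itself. SETDB1, a histone methyltransferase gene, and the cohesin genes PDS5B, SMC1A and STAG2 had neither. At CTCF the nearest H3K4me3 peak was 1071 bp from the start, just beyond the window. Of 4 genes for cytoplasmic partners of these receptors, PTK2, which encodes focal adhesion kinase, had both marks, and FYN, PTK2B and AXIN1 had none. The intervals of these 4 genes contained the share of all starts for each mark.

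The base composition of the members was poorer in G and C than that of most genes. Within 500 bp of the transcript start, the observed over expected CpG ratio had a median of 0.664 (0.192 to 0.913) in the members and 0.723 in all genes. GC content had a median of 44.4% (40.5 to 64.5) in the members and 61.3% in all genes. The median CpG ratio was 0.779 in the alpha, 0.494 in the beta and 0.664 in the gamma cluster. PCDHAC1 and PCDHAC2, with GC contents of 63.1% and 64.5%, were the richest in G and C among the 6 marked members. The median ratio was 0.732 over the 6 marked members and 0.656 over the 47 unmarked ones, with overlapping ranges of 0.450 to 0.860 and 0.192 to 0.913.

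H3K4me3 at all starts varied with this ratio, so the members were set beside starts of like composition. With a CpG ratio of at least 0.6, H3K4me3 was found at 5 of 35 members (14.3%, 4.81 to 30.3) and at 52.2% of all such starts. When GC content was also under 50%, it was found at 3 of 30 members (10.0%, 2.11 to 26.5) and at 70 of 300 starts in all (23.3%), a number that includes the 30 members. The 23.3% lay within the members' interval. In that class H3K27ac was found at 0 of 30 members (0%, 0 to 11.6) and at 35 of 300 starts (11.7%). With a ratio under 0.6, H3K4me3 was found at 1 of 18 members, which was PCDHGA1, and at 11.2% of all starts.

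**Figure D5:**
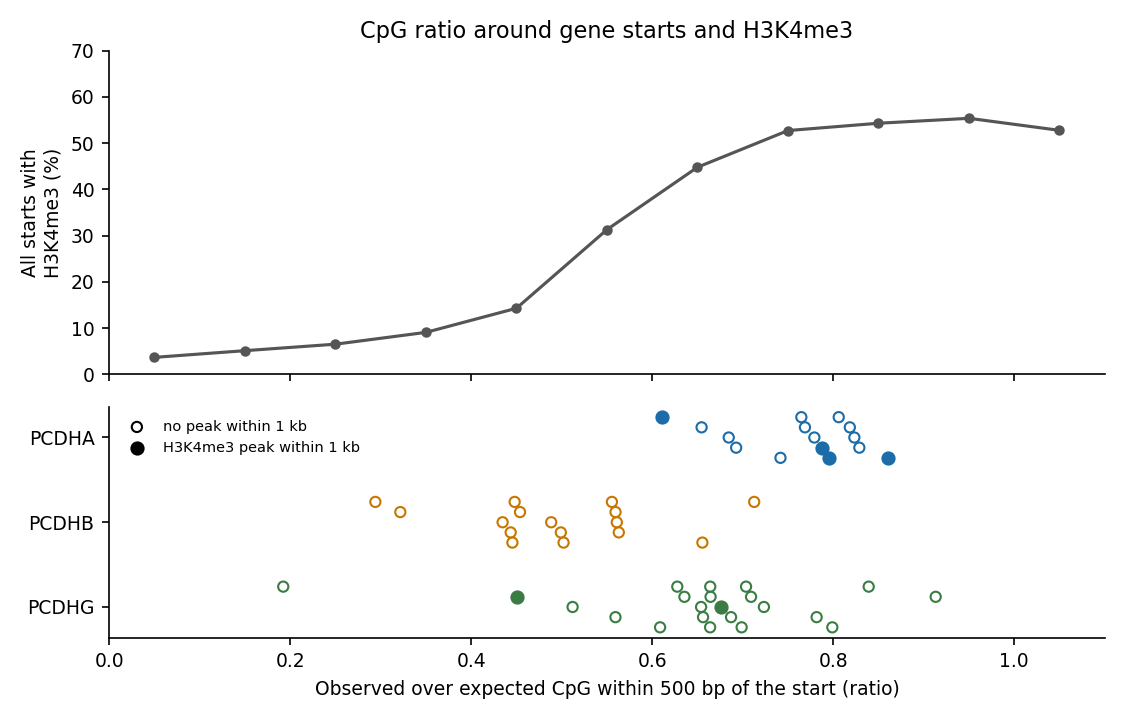
Percentage of all protein-coding starts with H3K4me3 within 1 kb by CpG ratio (top), and the CpG ratio of each member by cluster (bottom, vertical spread within a cluster for legibility), filled where H3K4me3 lay within 1 kb. The marked alpha members lie between ratios of 0.611 and 0.860, and 1 marked gamma member lies at 0.450.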

How the data were processed

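Peak lists of 1 H3K4me3 and 1 H3K27ac library were analysed. According to the labels and methods, libraries were prepared with a TruSeq ChIP kit and sequenced on a HiSeq4000, and the submitters' processing notes name bcl2fastq 1.8.4, Bowtie 1.1.1, SAMtools 1.2, Picard 1.118, MACS2 2.1.0 and ChIPseeker 1.6.6 with the build hg19. The peak threshold and the role of the input in peak calling are not given in the sources used here. The deposited column without a header was read from its values as −log10 q, assigned per summit by the authors with MACS2. Its smallest values were 1.303 for H3K27ac and 1.306 for H3K4me3, close to the 1.301 of a q of 0.05.

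Distinct intervals were taken as peaks with their highest value, which left 18585 of 20282 H3K4me3 entries and 24096 of 25275 H3K27ac entries. Coordinates are 1-based. Gene starts were the outer 5′ ends in GENCODE 44 mapped to GRCh37. For 2 members, PCDHA6 and PCDHA7, the annotation carries an older record, and the start of PCDHA7 coincides with its start codon. Sequence features used the start of the canonical transcript. Python 3.11.15, pandas 2.3.3, scipy 1.17.1 and pysam 0.24.0 were used, and the count of repeated words was tested on simulated sequences. With 1 library per mark no test was made, and depth is unknown, so the precision of a peak cannot be stated.

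The members, gene lists and comparisons were chosen with earlier results of these data known. Named with values were the C-type members, the up to 3 members of each cluster with the highest values per mark and the widest peaks. The first-exon peaks, the shared words and the peaks outside first exons were named after their values were seen. The alternatives were other windows, other definitions of the start, stricter peaks and a longer span. The first-exon count, the value of at least 5 and the removal of repeated sequence were chosen after seeing the data.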

Additional observations from a re-analysis of the deposited data

How the results depend on the processing

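Of 41 alternative values of 6 results, 37 stayed within a factor of 1.5 and 4 moved further. The 37 are no measure of robustness, since many of them could not move. Stricter settings cannot raise the counts of 0 members with H3K27ac or with both marks. The number with neither mark, 47 of 53, could not rise by that factor. With H3K27ac at 0 it was also the complement of the H3K4me3 count. The number of members with H3K4me3, 6 in the report, fell to 2 in the upper part of the list by median value and to 1 at a value of at least 5, which was PCDHAC2. The background fell as well, to 26.8% and 10.7% of all starts. The count was 8 with a window of 2 kb (42.0% of all starts) and 4 without peaks of repeated sequence (37.5%). Over the first exon it was 9 of 53, against 20.7% of all first exons, a background not matched for length. The H3K27ac count was also 0 with the window of 2 kb, the canonical start, the start codon and the first exon. None of these could have raised it, since the nearest H3K27ac peak lay 9819 bp before PCDHGA1, the nearest member. The clusters' share under H3K4me3 peaks was 0.274% in the upper part of the list, and the share under H3K27ac peaks was 0.0666% when the span was extended by 50 kb on each side. No paired analysis was possible because there was only 1 library for each mark. Replicates could not be left out for the same reason. The unknown depth limits every statement on missing peaks.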
